A study of Mus musculus with 16 samples.

Results

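The 4 plasma membrane calcium pump genes Atp2b1 to Atp2b4 and the 5 voltage-gated calcium channel genes Cacna1a to Cacna1e were followed across brain and spinal cord of mouse embryos with and without the neuronal splicing factors Nova1 and Nova2. Members were the probe sets that the platform annotation pairs with 1 of these 9 symbols and no other, 438 of the 625534 probe sets in the data. All 9 genes were among the 14570 genes for which a level could be computed. The 4 groups were whole brain and spinal cord of wild type embryos and whole brain and spinal cord of Nova1/2 double knockout embryos, all of the outbred CD1 stock at E18.5, shortly before birth. Each group holds 4 Affymetrix exon arrays, 1 array for each biological replicate. The starting material was total RNA, and an array carries short probes spread over the exons of each gene. The sources used here do not name the exons deleted in the knockouts, and the labels give no cell type below the whole organ.

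Plasma membrane calcium ATPases use ATP to push calcium out of the cell, and voltage-gated calcium channels let it in when the membrane depolarises. In neurons the channel pore, the alpha-1 subunit encoded by the Cacna1 genes, sets the current type: P/Q-type for Cacna1a, N-type for Cacna1b, L-type for Cacna1c and Cacna1d, and R-type for Cacna1e. P/Q- and N-type channels trigger transmitter release, L-type channels couple activity to transcription, and the pumps return calcium to rest afterwards. Nova proteins bind clusters of YCAY in neuronal RNA and regulate alternative splicing, and transcripts of the pump and channel families are known to be alternatively spliced.

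The promoter letters of Atp2b2 are shown because this pump had 1 of the clearest genotype changes and because RefSeq lists several starts for it. RefSeq promoter entries (GRCm38.p6) were found for 7 of the 9 genes, in 13 windows of 300 bases around a transcription start, and Atp2b3 and Cacna1a were unmatched. The 100 bases upstream of each of the 3 listed Atp2b2 starts are printed 5′ to 3′ on the minus strand of chromosome 6, with each GC box (GGGCGG, or CCGCCC when read on the other strand) in capitals. The windows are chr6:114042081-114042180, chr6:113934682-113934781 and chr6:113891540-113891639.
Atp2b2 start 1: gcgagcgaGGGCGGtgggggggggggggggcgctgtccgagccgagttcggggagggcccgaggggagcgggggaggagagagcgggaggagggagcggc
Atp2b2 start 2: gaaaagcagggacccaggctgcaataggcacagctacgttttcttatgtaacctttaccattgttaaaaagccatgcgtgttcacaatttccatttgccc
Atp2b2 start 3: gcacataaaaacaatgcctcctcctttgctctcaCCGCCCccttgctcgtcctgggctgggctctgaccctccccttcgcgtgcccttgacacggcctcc
The first and the third stretch hold 1 GC box each and the second holds none. A GC box was found in 24.7% of all 32851 listed promoters over the same 100 bases. Over the whole 300 bases, 7 of the 13 windows of these genes held a GC box against 35.7% of all promoters. Such a match describes the letters and is no evidence of a bound site, and the arrays do not tell which start was used.

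Levels were taken on a log2 scale as log2(intensity + 16), and a probe set entered a gene level when its mean over the 16 arrays was above 6.73, the median of all probe sets. A gene level is the median over those probe sets on an array, so levels are compared between arrays for a gene and never between genes. Of the 438 probe sets, 409 were above the floor, from 26 for Atp2b4 to 63 for Cacna1e, and 29 were not. A fold is 2 to the power of the difference on this scale, on which dim probe sets show too small a change. A difference was called when its Benjamini-Hochberg adjusted p in a limma fit over all 16 arrays was under 0.05.

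The labels and the tissues were checked before the calcium genes. The level of Nova1 lay between 9.996 and 10.72 in wild type brain and between 11.52 and 11.94 in wild type cord, against 4.64 to 5.51 and 6.28 to 6.54 in the double knockouts, which is below the floor. Nova2 fell by 0.75 in brain and by 1.14 in cord (limma, adjusted p = 0.00162 and 2.43e-06). Since the deleted exons are not given, the remaining Nova2 signal checks nothing further. Correlations of gene levels between arrays of a group ran from 0.946 to 0.987. The mean level of 14 Hox genes, marking cord, was between 9.36 and 9.76 on cord arrays and between 6.02 and 7.14 on brain arrays. Pan-neuronal genes were high on all 16 arrays, between 10.93 and 11.33.

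Some arrays stood apart. Brain arrays numbered 3 had the lowest mean level of telencephalon genes in their groups, 7.65 in wild type and 8.50 in double knockout, where the others lay between 9.45 and 9.67. Wild type cord arrays 1 and 4 and double knockout cord arrays 2 and 4 carried more skeletal muscle signal, with mean list levels from 8.80 to 9.86 against 7.45 to 7.85 on the other 4 cord arrays. Wild type brain 3 gave the highest level in its group for 8 of the 9 genes, and wild type cord 1, the array richest in muscle signal, for 7 of 9. By Xist and Y-linked genes, wild type brain held 2 females and 2 males, double knockout brain 4 females, wild type cord 2 females and 2 males, and double knockout cord 3 females and 1 male. Atp2b3 lies on the X chromosome.

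**Figure D1:**
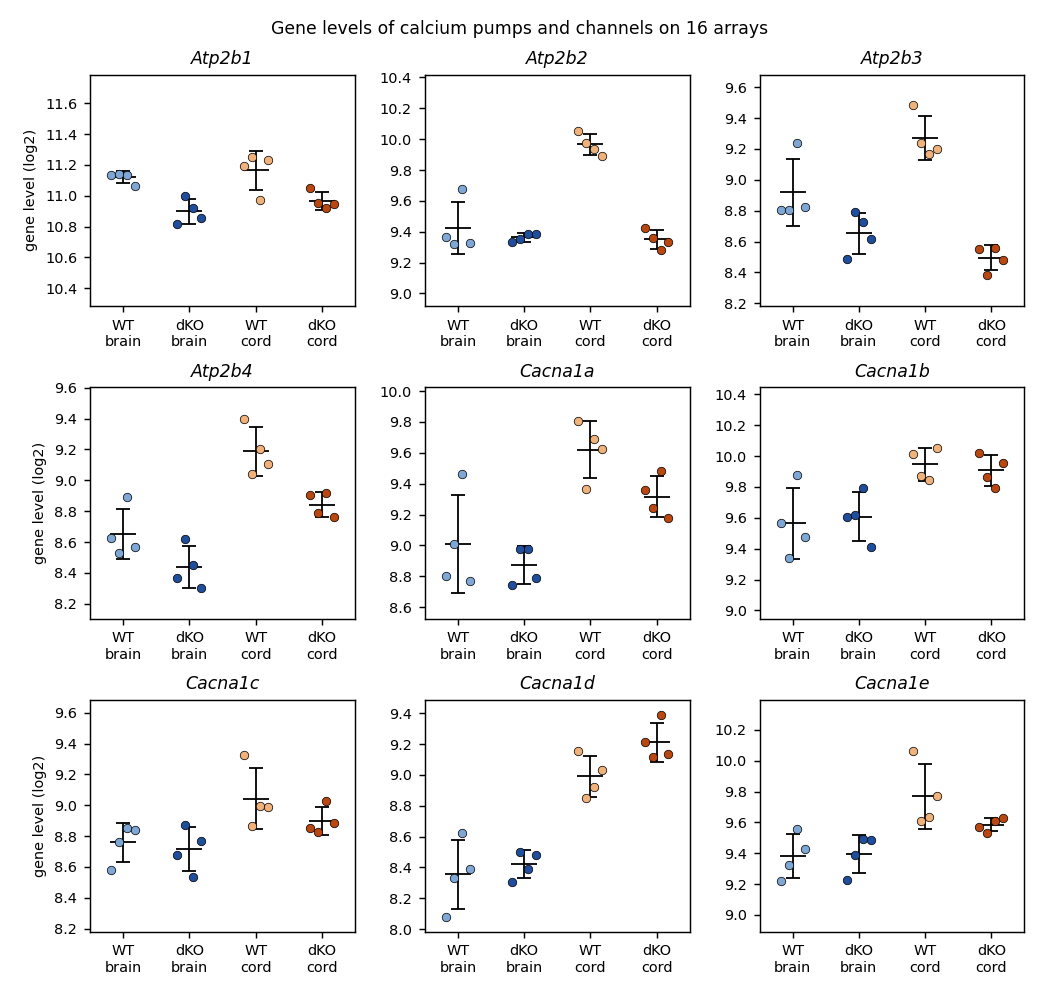
Gene level (log2, vertical axis) of each calcium pump and channel gene on every array, with the groups on the horizontal axis, 4 points per group, and bars for mean ± SD; each panel has its own axis. The 4 double knockout cord points of Atp2b2 and of Atp2b3 lie below all 4 wild type cord points, and the array of wild type brain 3 stands above its group for both genes.

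In brain, none of the 9 genes was called between genotypes. All 4 pumps had a lower mean in the double knockout, though Atp2b2 was 0.03 higher without wild type brain 3, and the channels differed from wild type by 0.14 or less in either direction. Atp2b1, the most widely expressed of the pumps, had levels of 11.14, 11.14, 11.14 and 11.07 in wild type brain and 10.82, 11.001, 10.92 and 10.86 in double knockout brain. All 4 double knockout arrays were below all 4 wild type arrays, with a change of -0.22 (SE 0.0863; limma, unadjusted p = 0.0189, adjusted p = 0.761). Atp2b3, a pump found mainly in neurons, had levels of 8.80, 8.80, 9.24 and 8.82 in wild type and 8.48, 8.79, 8.73 and 8.61 in double knockout brain. These groups did not overlap either, with the highest double knockout array just under the lowest wild type array, and the change was -0.27 (SE 0.111; limma, unadjusted p = 0.0278, adjusted p = 0.834). Without the wild type brain 3 array the Atp2b3 change was -0.16, so that array moved the value by more than 1.5 times.

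The other pumps gave smaller or less even differences in brain. Atp2b4 changed by -0.22 (SE 0.106; limma, adjusted p = 0.955) with overlapping groups, and Atp2b2 by -0.06 (SE 0.0910; limma, adjusted p close to 1). The interval of the Atp2b2 difference runs from -0.25 to 0.13. Over all genes 0.268% were called in brain, and 5.33% had an unadjusted p under 0.05, which 2 of the 9 genes had, Atp2b1 and Atp2b3. The groups did not overlap, with the double knockout lower, for these 2 genes and for 1.83% of all genes. The median change of the 4 pumps was -0.22 and that of all genes 0.02.

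In spinal cord, Atp2b2 and Atp2b3 fell in the double knockout, and no channel gene was called. Atp2b2 encodes a fast pump known from Purkinje cells and hair cells. Its level was 10.06, 9.98, 9.94 and 9.89 on the wild type cord arrays and 9.42, 9.36, 9.28 and 9.34 on the double knockout cord arrays. The lowest wild type array was well above the highest double knockout array, while within each group the arrays lay close together. Atp2b2 fell by 0.62, or 1.53-fold (SE 0.0910; limma, adjusted p = 0.000376).

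Atp2b3 showed the same pattern with a larger change. Wild type cord levels were 9.48, 9.24, 9.17 and 9.20, and double knockout cord levels were 8.55, 8.38, 8.56 and 8.48. Again no double knockout array reached the lowest wild type array. Atp2b3 fell by 0.78, or 1.72-fold (SE 0.111; limma, adjusted p = 0.000266). In these bulk samples, fewer cells of a type and less RNA per cell cannot be told apart.

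The remaining pumps were lower in cord without passing the test. Atp2b4, a pump known from red blood cells and sperm, had cord levels of 9.40, 9.04, 9.20 and 9.11 in wild type and 8.90, 8.79, 8.92 and 8.76 in double knockout. The groups did not overlap, and the change was -0.34 (SE 0.106; limma, adjusted p = 0.0623). Levels of Atp2b1 were 11.19, 11.25, 10.97 and 11.23 against 11.05, 10.95, 10.92 and 10.95. The wild type cord 3 array lay inside the double knockout range, and the change was -0.20 (SE 0.0863; limma, adjusted p = 0.208).

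Over all genes, 4.55% were called lower in cord and 5.63% were called in either direction, beside 2 of these 9 genes, both lower. An unadjusted p under 0.05 in limma was found for 5 of the 9 genes and for 19.5% of all genes. The groups did not overlap with the double knockout lower for 3 of the 9 genes, all of them pumps, and for 7.62% of all genes. The median change of the 4 pumps was -0.48, that of the 5 channels -0.15 and that of all genes -0.03. Leaving out the 4 muscle-rich cord arrays kept the size of the changes, -0.60 for Atp2b2 and -0.65 for Atp2b3, but with 2 arrays left in each cord group their adjusted p rose to 0.0628 and 0.0809. In that fit 100 genes were called in cord, against 820 with all arrays. With sex as a term in the fit the changes were -0.63 and -0.81 (limma, adjusted p = 0.000517 and 0.000232).

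**Figure D2:**
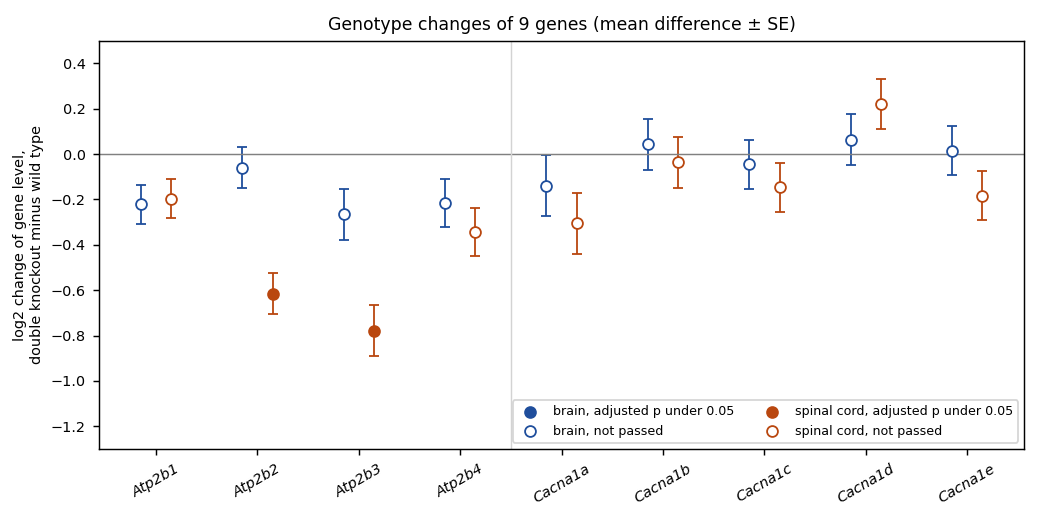
Difference in gene level between double knockout and wild type (log2, vertical axis) for each of the 9 genes in brain and in spinal cord; points are mean differences, bars are ± SE, and filled points passed an adjusted p of 0.05. Atp2b2 at -0.62 and Atp2b3 at -0.78 in cord are the filled points, and the channels in both tissues lie nearer 0 than these.

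The test of the difference between tissues asks whether the genotype change in cord was unlike that in brain. For Atp2b2 the change in cord was 0.56 lower than in brain (difference -0.56, SE 0.129; limma, unadjusted p = 0.000358, adjusted p = 0.18). For Atp2b3 the difference was -0.51 (SE 0.158; limma, unadjusted p = 0.00404, adjusted p = 0.366). None of the 9 genes was called, as 0% of all genes were, while 8% of all genes and 2 of these 9 had an unadjusted p under 0.05 in limma. The fall of these pumps in cord is therefore not shown to be particular to cord. Without the wild type brain 3 array, which is highest for Atp2b2, the Atp2b2 difference was -0.64 with an adjusted p of 0.0317.

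Single probe sets showed how much of each pump moved. In cord, 30 of the 36 Atp2b2 probe sets above the floor had a lower mean in the double knockout, and for 25 the 4 double knockout arrays were below the 4 wild type arrays. For Atp2b3 these counts were 29 and 21 of 32, and for Atp2b4 26 and 11 of 26. For Atp2b1 they were 25 and 6 of 27. Over all 206355 named probe sets above the floor, 53.5% had a lower mean and 6.03% did not overlap in that direction. The changes ran from -0.99 to 0.63 for Atp2b2 with a median of -0.51, and from -1.24 to 0.16 for Atp2b3 with a median of -0.78. Probe sets of a gene share its transcripts and arrays and are not independent.

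The Atp2b2 probe sets with separated groups were brighter on median, with overlap between the sets. The 25 with separated groups had a median level of 9.94 over the 16 arrays, against 8.12 for the 5 that were lower with overlapping groups and 7.85 for the 6 that were not lower. Among the 5, probe set 5514981 changed by -0.50, near the gene's median, and probe set 5331646 by -0.19 at a level of 9.45, above several separated ones. For Atp2b3 the corresponding medians were 8.83, 9.15 and 8.57.

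In brain the direction of single probe sets was even for Atp2b1. All 27 of its probe sets had a lower mean in the double knockout, by 0.13 to 0.42, and 9 did not overlap. The counts of lower means were 29 of 36 for Atp2b2, 30 of 32 for Atp2b3 and 25 of 26 for Atp2b4, against 45.2% of all probe sets. Groups did not overlap for 2, 10 and 2 of them, against 1.79% of all probe sets.

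**Figure D3:**
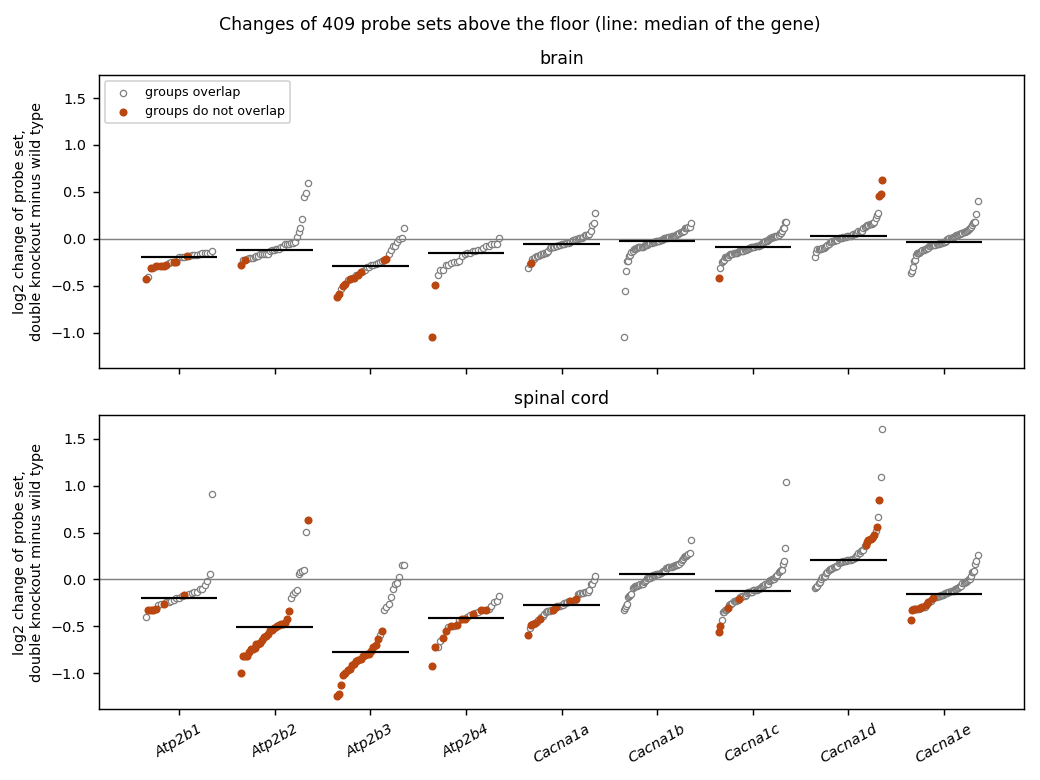
Difference between double knockout and wild type (log2, vertical axis) of each of the 409 probe sets above the floor, sorted within its gene, in brain (upper panel) and cord (lower panel); filled points have groups of 4 arrays that do not overlap, and a line marks the gene's median. Most Atp2b2 and Atp2b3 points in cord are filled and below 0, with medians of -0.51 and -0.78, and most Cacna1d points in cord are above 0.

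Splicing changes were sought with an exon index, the log2 value of a probe set minus its gene's level on the same array. In cord 5 of the 409 probe sets were called, or 1.22%, against 0.388% of all 193126 probe sets tested. All 5 were higher in the double knockout, a direction called for 0.235% of all, and they lay in Atp2b3 (4 probe sets) and Atp2b2 (1). An unadjusted p under 0.05 in limma was found in cord for 49 of the 409, or 12%, against 11.8% of all. In brain none was called, against 0.15% of all in limma, and 24 of 409 had an unadjusted p under 0.05, or 5.87%, against 3.3% of all. Where each probe set lies along its gene was not used, and no exon is named for it.

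Probe set 4364751 of Atp2b3 read 9.29, 9.17, 8.86 and 9.14 (log2 values) in wild type cord and 9.17, 9.25, 9.39 and 9.27 in double knockout cord. It did not follow the fall of its gene: its own difference was 0.16 where the gene level changed by -0.78, and the index rose by 0.94 (SE 0.102; limma, adjusted p = 0.000308). The same probe set had the lowest p of Atp2b3 in brain, where the index was 0.38 higher in the double knockout without overlap of the groups (SE 0.102; limma, adjusted p = 0.453).

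Probe set 4399567 of Atp2b3 read 10.16, 10.04, 10.11 and 9.95 in wild type cord and 10.04, 9.88, 10.23 and 9.92 in double knockout cord. Its groups overlapped almost wholly, with an own difference of -0.05 and an index rise of 0.73 (SE 0.138; limma, adjusted p = 0.0305). Probe sets 5271466 and 5122907 of Atp2b3 behaved likewise, with own differences of -0.04 and 0.16 and index rises of 0.74 and 0.94 (limma, adjusted p = 0.0107 and 0.0229). Probe set 5271466 was dim, with a mean of 7.15 over all arrays against the floor of 6.73, so the size of its own difference is uncertain. Only 5415712 of Atp2b3 was dimmer, at 7.14, and it changed by -0.79 in cord with separated groups. Probe set 5492303, at 7.44, changed by -0.18 with overlapping groups. The part of dimness in these differences was not tested. Probe sets 4708080 and 4918455 of Atp2b3, not called by index, also had small own differences of 0.03 and -0.10. The groups were separated, with the double knockout lower, for 21 of the 32.

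Probe set 4594975 of Atp2b2 moved against its gene. It read 8.27, 8.42, 7.23 and 8.07 in wild type cord and 8.62, 8.44, 8.83 and 8.62 in double knockout cord. Every double knockout array was above every wild type array, though wild type cord 2 and double knockout cord 2 differed little and wild type cord 3 was low. Its own difference was 0.63, and its index rose by 1.25 (SE 0.213; limma, adjusted p = 0.0158). In brain the index of this probe set was 0.50 higher in the double knockout, with an adjusted p close to 1 in limma.

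These index calls varied in how they held. Only the call of 4364751 held without each cord array in turn and with the 8 cord arrays fitted alone. The call of 5271466 held without each array but not in the cord arrays alone, while the others depended on single cord arrays. The call of 4594975 was lost without double knockout 3 or 4, that of 5122907 without wild type 1 or 3 or double knockout 2 or 3, and that of 4399567 without any 1 cord array but wild type 3. Leaving out 1 array at a time, the count of called probe sets ran from 2 to 7. Counts fell to 3 when wild type array 1 or double knockout array 2 or 4 was left out, to 2 when double knockout array 3 was, and to 0 without the 4 muscle-rich arrays. None of the 409 was called for a difference of the genotype change between tissues in limma, against 0.000518% of all, and 27 had an unadjusted p under 0.05, or 6.6%, against 5.67% of all.

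**Figure D4:**
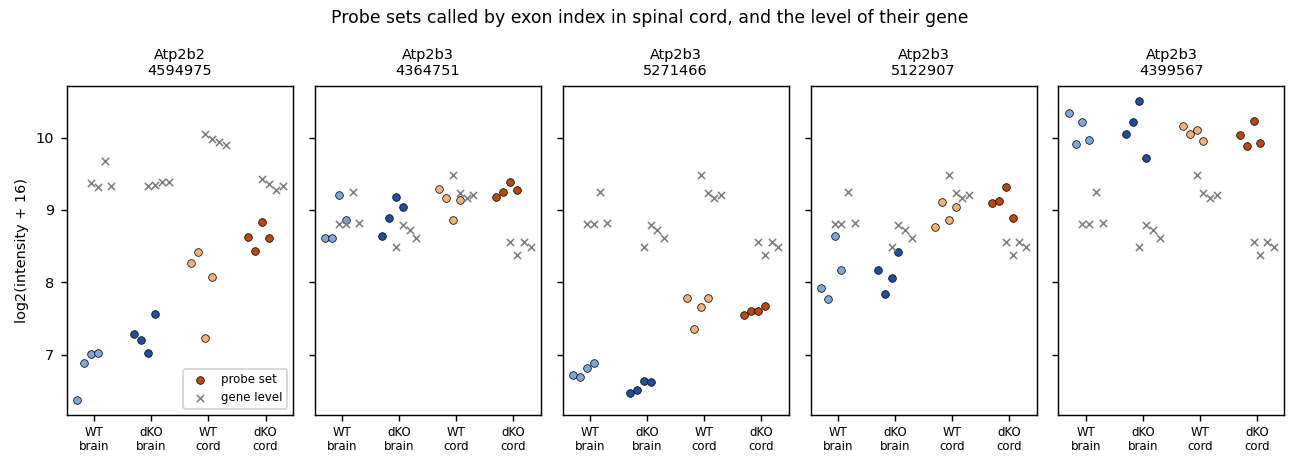
Log2 values (vertical axis) of the 5 probe sets called by exon index in cord, on every array of the 4 groups (circles), with the level of the gene on the same arrays (crosses). Crosses drop from wild type to double knockout cord in every panel while the circles stay level for the 4 Atp2b3 probe sets and lie higher for the Atp2b2 probe set; the offset between circles and crosses carries no meaning.

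Among the pumps without a called probe set, the lowest p in brain belonged to probe set 4426241 of Atp2b4. It read 7.28, 7.59, 7.56 and 7.17 in wild type brain and 6.87, 6.20, 6.22 and 6.15 in double knockout brain, the last 3 of these below the floor. The groups did not overlap, and the index change was -0.83 (SE 0.204; limma, adjusted p = 0.306). In cord the index change of this probe set was -0.31 (limma, adjusted p = 0.577).

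The 5 channel genes were not called between genotypes in either tissue by limma, and none had groups without overlap. Only 1, Cacna1a in cord, had an unadjusted p under 0.05, as 19.5% of all genes had in cord. Cacna1a, the P/Q-type pore of central synapses, had the largest channel difference in cord, with levels of 9.81, 9.36, 9.69 and 9.62 in wild type and 9.36, 9.24, 9.48 and 9.18 in double knockout. The double knockout range reached over the lowest wild type array, and the change was -0.31 (SE 0.136; limma, adjusted p = 0.215). In brain it was -0.14 (SE 0.136), with 1 wild type array, number 3, far above the others at 9.46, and without that array the change was 0.01. Of its 47 probe sets, 46 had a lower mean in cord, against 53.5% of all, and 8 did not overlap in that direction, against 6.03% of all.

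Cacna1d, an L-type channel that opens at more negative voltages than Cacna1c, was the 1 gene of the 9 with a higher mean in double knockout cord. Its levels were 9.16, 8.85, 8.92 and 9.03 in wild type cord and 9.21, 9.11, 9.39 and 9.13 in double knockout cord. Wild type cord 1 lay inside the double knockout range, and the change was 0.22 (SE 0.112; limma, adjusted p = 0.285). In cord 50 of its 55 probe sets had a higher mean and 8 did not overlap in that direction, against 3.75% of all probe sets.

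Groups were separated, with the double knockout higher, for 3 of the 55 Cacna1d probe sets in brain, against 1.89% of all probe sets. In cord they were for 8, against 3.75% of all. Within the gene, probe set 4480403 had the lowest p by exon index in both tissues. It read 6.28, 6.71, 6.62 and 6.68 in wild type brain against 7.26, 6.85, 7.51 and 7.16 in double knockout brain, and 8.24, 7.73, 7.79 and 8.06 in wild type cord against 8.54, 8.76, 9.01 and 8.88 in double knockout cord. Its double knockout arrays were above the wild type arrays of the same tissue throughout, though wild type brain values lay under the floor. The index was 0.56 higher in brain, with overlapping groups (SE 0.145; limma, adjusted p = 0.409), and 0.62 higher in cord (SE 0.145; limma, adjusted p = 0.0834). Neither passed. The cord difference was called under quantile normalization (0.70, adjusted p = 0.0285) and without double knockout brain 2 (adjusted p = 0.0434).

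The other channels differed little between genotypes. Cacna1b, the N-type pore, changed by 0.04 in brain and -0.04 in cord, and in cord only 21 of its 61 probe sets had a lower mean. The intervals of these differences ran from -0.20 to 0.28 and from -0.27 to 0.20. Cacna1c, the main L-type pore of heart, smooth muscle and brain, changed by -0.05 in brain and -0.15 in cord, and Cacna1e, the R-type pore, by 0.01 and -0.18. Their intervals in cord ran from -0.37 to 0.08 and from -0.41 to 0.04, so falls of the size seen for Atp2b2 lie outside them.

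Spinal cord was set against brain within each genotype. In wild type embryos 8 of the 9 genes were called higher in cord, where 20.6% of all genes were called higher and 60.4% were called either way. The median over the 9 genes was 0.39 and over all genes -0.16. Cacna1d differed most, with brain levels of 8.08, 8.33, 8.62 and 8.39 against cord levels of 9.16, 8.85, 8.92 and 9.03. No brain array reached the lowest cord array, and the rise was 0.64, or 1.55-fold (SE 0.112; limma, adjusted p = 0.000126).

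Cacna1a rose by 0.61 from wild type brain to cord (SE 0.136; limma, adjusted p = 0.000922), Atp2b2 by 0.54 (SE 0.0910; adjusted p = 8.5e-05) and Atp2b4 by 0.53 (SE 0.106; adjusted p = 0.000353). Smaller rises were found for Cacna1e (0.39), Cacna1b (0.38), Atp2b3 (0.35) and Cacna1c (0.28), with adjusted p between 0.005 and 0.0306 in limma. Atp2b1 was the exception, with a difference of 0.04 and an interval from -0.14 to 0.22. Under quantile normalization the Atp2b1 difference was 0.29 (limma, adjusted p = 0.00431), and all 9 genes were then called higher. Wild type cord 1, with the highest skeletal muscle level, also gave the highest cord level for 7 of the 9 genes. Without the 4 muscle-rich arrays, which leaves 2 cord arrays a group, 4 genes stayed called. The differences that were no longer called were 0.29 for Atp2b3, 0.29 for Cacna1b, 0.17 for Cacna1c and 0.24 for Cacna1e (limma, adjusted p = 0.0932, 0.111, 0.256 and 0.104). The Cacna1c call was also lost without wild type brain 1 or 2 or wild type cord 1. Marker lists differed between the wild type tissues as well: 12 of 13 skeletal muscle genes were higher in cord (median 1.45), 5 of 8 astrocyte genes were higher (median 0.62), and 6 of 9 pan-neuronal genes were lower and 2 higher (median -0.48). Their part in these differences was not tested.

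In double knockout embryos 4 of the 9 genes were called higher in cord, as 18.6% of all genes were, and 7 had a higher mean. Atp2b1, Cacna1c and Cacna1e were higher by 0.07, 0.18 and 0.19 without being called. Cacna1d rose by 0.79, or 1.73-fold (SE 0.112; limma, adjusted p = 1.47e-05), from brain levels between 8.30 and 8.50 to cord levels between 9.11 and 9.39. Cacna1a rose by 0.44, Atp2b4 by 0.41 and Cacna1b by 0.30 (limma, adjusted p = 0.00791, 0.00257 and 0.0256). Atp2b2 stood at 9.33 to 9.39 in double knockout brain and at 9.28 to 9.42 in double knockout cord, a difference of -0.01 (SE 0.0910; limma, adjusted p = 0.895). Atp2b3 differed by -0.16 (SE 0.111; adjusted p = 0.211).

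The double knockout calls moved with how a gene level was formed. With the mean over probe sets in place of the median, 8 genes were called, and Atp2b2 turned to a rise of 0.28 in cord (limma, adjusted p = 0.00448). For the wild type and double knockout tissue differences of Atp2b2, 0.54 and -0.01, the test of their difference is the genotype test between tissues given above, which was not passed. The Cacna1b call was lost without the 4 muscle-rich arrays and without 1 of 3 single arrays, double knockout brain 4, cord 1 or cord 4.

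**Figure D5:**
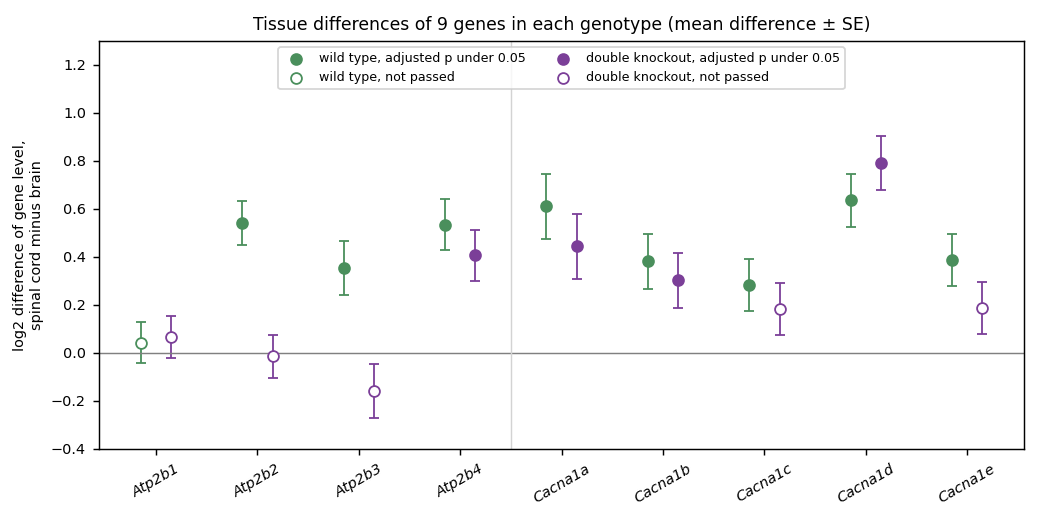
Difference in gene level between spinal cord and brain (log2, vertical axis) for each gene, in wild type and in double knockout embryos; points are mean differences, bars are ± SE, and filled points passed an adjusted p of 0.05. In wild type 8 of 9 points are filled and above 0, and in double knockout Atp2b2 and Atp2b3 are open at -0.01 and -0.16.

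Probe sets of these genes also differed between tissues relative to their gene. In wild type 70 of 409 were called by exon index, or 17.1%, 40 higher and 30 lower in cord, against 22% of all probe sets. In double knockout 98 were called, or 24%, against 25.9%. These shares were near or under those of all probe sets. Cacna1c held 15 of the 70 and Cacna1e 14, where the Cacna1e index of probe set 5107499 rose by 0.69 in wild type and 1.10 in double knockout (limma, adjusted p = 0.000325 and 7.98e-06). Its brain values were under the floor, from 5.82 to 6.70, so the size of these rises is uncertain. Under quantile normalization the wild type call of this probe set was lost, at 0.16 and an adjusted p of 0.263.

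Cacna1c gave called probe sets in opposite directions. Probe set 4769660 read 8.03, 8.39, 7.83 and 8.20 in wild type brain and 8.08, 7.17, 7.39 and 7.50 in wild type cord, where its gene was higher. The index fell by 0.86 in cord (SE 0.140; limma, adjusted p = 0.000688), and it fell by 0.57 in the double knockout (adjusted p = 0.00751). Probe set 5469524 read 5.34, 6.54, 6.63 and 6.38 in wild type brain, all under the floor, and 8.43, 7.74, 7.54 and 7.59 in wild type cord. Its index rose by 1.32 (SE 0.214; limma, adjusted p = 0.000674).

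Other genes of calcium handling were read from 6 lists, 55 genes of which 44 had a level. In brain 2 of the 44 were called, both lower, or 4.55% against 0.268% of all genes. In cord 10 were called, all lower, or 22.7% against 5.63% of all genes. The median change of the 44 was -0.09 in brain and -0.22 in cord. None was called for a difference between tissues in limma, and 5 had an unadjusted p under 0.05, against 8% of all genes. The calls lay among exchangers, auxiliary subunits, release channels and buffers, while the other pore-forming subunits (6 tested) and the intracellular pumps of the endoplasmic reticulum and Golgi (5 tested) had none in either tissue. Of those 6 pore-forming genes 1 in brain and 2 in cord had an unadjusted p under 0.05 in limma, and of the 5 pumps 0. Over all genes 5.33% had one in brain and 19.5% in cord.

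Among 9 calcium exchangers, 2 were lower in cord and 1 in brain. Slc24a2, a potassium-dependent sodium-calcium exchanger of neurons, had levels of 8.90, 8.71, 8.82 and 9.06 in wild type cord and 7.83, 7.80, 7.77 and 7.77 in double knockout cord. The gap between the groups was wide beside the spread within them, and Slc24a2 fell by 1.08, or more than either pump (SE 0.138; limma, adjusted p = 7.61e-05). Slc8a1, the sodium-calcium exchanger that works beside the pumps, fell in both tissues. In brain it read 9.73, 9.81, 9.97 and 9.95 in wild type and 9.21, 9.33, 9.16 and 9.37 in double knockout. All double knockout arrays were lower, by 0.60 on average (change -0.60, SE 0.0956; limma, adjusted p = 0.00354), and in cord Slc8a1 fell by 0.37 (SE 0.0956; limma, adjusted p = 0.0256).

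Of 11 auxiliary channel subunits with a level, 3 were lower in cord and 1 in brain. Cacna2d3, an alpha-2/delta subunit that aids channel delivery to the membrane, read 9.71, 9.66, 9.52 and 9.57 in wild type brain and 9.10, 8.90, 9.11 and 8.78 in double knockout brain. The groups were clearly apart, and it fell by 0.64 (SE 0.104; limma, adjusted p = 0.00392). In cord Cacna2d3 fell by 0.47 (SE 0.104; limma, adjusted p = 0.0105). Cacng2, known as stargazin and as a partner of AMPA receptors, fell by 0.61 in cord (SE 0.130; limma, adjusted p = 0.00808), and Cacnb1, a cytoplasmic beta subunit, by 0.36 (SE 0.095; adjusted p = 0.0298).

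Of 7 buffers and sensors, 4 were lower in cord: Vsnl1 fell by 0.72, S100b by 0.71, Hpca by 0.42 and Calm3, a calmodulin gene, by 0.32 (limma, adjusted p = 0.00224, 0.00213, 0.0387 and 0.0378). Vsnl1 and Hpca are neuronal calcium sensors. S100b is also an astrocyte gene and stands in the astrocyte list. Of 6 release channels, Ryr2, a ryanodine receptor, fell by 0.55 in cord (SE 0.161; limma, adjusted p = 0.0485). The cord call of Slc8a1 was lost without wild type cord 1 or double knockout cord 1, 2 or 3, and that of Cacnb1 without wild type cord 1, 2 or 3 or double knockout cord 2, 3 or 4. That of Calm3 was lost without any 1 of 7 arrays (in cord, wild type 2 or 3 and double knockout 2, 3 or 4; in brain, wild type 4 and double knockout 1), and that of Ryr2 without any 1 of the 16 but wild type brain 1 or 3. With gene levels as means over probe sets the Calm3 change was -0.05. The call of S100b was lost with no floor, and that of Ryr2 with a pseudocount of 1. That of Slc8a1 was lost in the 8 cord arrays alone. Cacnb1 and Calm3 were not called with no floor, with means or in the 8 cord arrays alone. Calm3 was also not called with the replicate block or a sex term. Without the 4 muscle-rich arrays the cord calls of the 9 named list genes other than Hpca were lost, with changes of -0.97 for Slc24a2, -0.68 for S100b, -0.66 for Vsnl1, -0.47 for Cacng2, -0.35 for Cacna2d3, -0.35 for Cacnb1, -0.34 for Calm3, -0.32 for Ryr2 and -0.27 for Slc8a1. Hpca was not followed in that fit.

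Markers of other cell types were also read in cord, where 4.55% of all genes were called lower. Of 8 astrocyte genes measured, 6 were lower in double knockout cord, with a mean list level of 10.34 to 10.76 in wild type and 9.88 to 10.23 in double knockout. Of 9 pan-neuronal genes none was called, and 1 had an unadjusted p under 0.05 in limma, against 19.5% of all genes. Their mean list level was 10.93 to 11.19 in wild type and 10.94 to 11.17 in double knockout. Of 13 skeletal muscle genes 1 was called lower, and of 8 Purkinje cell and cerebellum genes 1. Of 7 smooth muscle and pericyte genes 1 was called lower, and of 2 erythroid genes 1. Single calls in lists this short are little to set against the 4.55% of all genes. In brain limma called no gene of these lists or of the Hox and telencephalon lists. An unadjusted p under 0.05 was found there for 6 of 14 Hox genes, against 5.33% of all genes. The median Hox change in brain was 0.46, with mean list levels of 6.02 to 6.89 in wild type and 6.70 to 7.14 in double knockout. Its bearing on the brain comparisons was not tested. The part of astrocytes, muscle or other cells in the fall of Atp2b2, Atp2b3 and the listed genes was not tested.

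The genes whose levels followed each member most closely over the 16 arrays were found by the root mean square difference of centred levels. Caskin1 and Tmem191c were nearest to Atp2b2, at 0.0958 and 0.101, and fell in cord by 0.54 and 0.56 (limma, adjusted p = 0.00367 and 0.00278). Arhgap26 and Slc12a5 were nearest to Atp2b3, at 0.114 and 0.121, and fell in cord by 0.65 and 0.66 (adjusted p = 0.00105 and 0.00267). Nearness was defined on the same levels, so those falls are no independent result. For Cacna1c the nearest were Ank3 and Adam11, for Cacna1d Sync and Gnas, for Cacna1e Utrn and F730015K02Rik, and for Cacna1b Fbxo2 and P2rx7. Dscam stood among the nearest to both Atp2b4 and Cacna1a, with EG243866 and Csmd1 the others, and Cacna1i, a T-type channel, was nearest to Atp2b1 ahead of Slc35f2.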

How the data were processed

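Each deposited value is the linear intensity of 1 probe set. Per the submitters' processing notes, the authors made these with PLIER in Affymetrix Power Tools, on build mm8; their versions and settings: not given in the sources used here. Median intensities were 72.3 to 82.9 on brain and 99.4 to 116 on cord arrays, which were kept as deposited. Values were taken as log2(intensity + 16). A gene level is the median of its named probe sets above the floor (at least 3), and an exon index needed at least 5. In limma 3.58.1 (R 4.3.3) the 4 group means were fitted together, with p-values adjusted by Benjamini-Hochberg within each comparison, and the scripts were tested on simulated data. Symbols are those of the platform annotation, and 316013 probe sets are unnamed here. Detection calls were not used, and the number of arrays limits the precision. Group and replicate number came from the sample titles. In brain, same-numbered arrays of the 2 genotypes deviated together (correlations 0.21 to 0.41, each best with its own number), so the numbers pair there, and in cord they did not (-0.12 to 0). The brain p-values in the Results come from the fit without this pairing. Over all alternatives, the replicate block among them, the limma adjusted p in brain stayed at 0.275 or above for Atp2b1 and 0.449 or above for Atp2b3.

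The members and gene lists were chosen with earlier results of these data known. Named probe sets were drawn from those called by exon index, at most 4 a gene, or else the 1 with the lowest p. Between tissues they were at most 2 a gene. Not every probe set that this rule picks is printed. Probe sets 5514981 and 5331646 of Atp2b2 and 5415712, 4708080 and 4918455 of Atp2b3 were named beyond this rule. Named list genes were at most 3 called genes a list by lowest p. Where a list had no call in a tissue, no gene is printed for it there. Hpca was named beyond this rule after its value was seen. The nearest 2 genes were named for each member. Alternatives changed the pseudocount, the floor, the gene summary, the scaling, the arrays fitted, the replicate block, a sex term and the arrays left out.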

Additional observations from a re-analysis of the deposited data

Results flagged for a closer look

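In 109 groups of 4 arrays checked for a single array far from the other 3, of which 36 were gene levels, 6 held one. Chance flags about 1 in 20 groups. The Atp2b2 level of wild type brain 3 was 9.68, where the other wild type brain arrays lay between 9.32 and 9.37. On the same array Atp2b3 stood at 9.24, where the others lay between 8.80 and 8.82. Atp2b1 was low on wild type brain 4 at 11.07, beside 11.14 on each of the others. Among exon indices, Atp2b4 probe set 4426241 was at -0.94 on wild type brain 2, with the others from -1.39 to -1.33. Cacna1b probe set 5133038 was at -2.11 on double knockout cord 1, with the others from -1.85 to -1.81. Atp2b1 probe set 5554209 was at -3.15 on wild type cord 2, with the others from -2.58 to -2.53.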

How the results depend on the processing

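The counts of called genes and probe sets stayed within 1.5 times their value under each alternative not named here, and the causes of the shifts were not tested. Without the 4 muscle-rich cord arrays, which leaves 2 arrays in each cord group, 0 genes and 0 probe sets were called between genotypes in cord, 4 genes and 32 probe sets between wild type tissues, and 54 probe sets between double knockout tissues. For double knockout tissues, 2 genes were called with the floor at the 75th percentile, 8 with gene levels as means and 7 with quantile normalization. With means, Atp2b2 reversed between double knockout tissues, from -0.01 to 0.28. In cord, quantile normalization called 11 probe sets and the 8 cord arrays alone called 2. Leaving out 1 array at a time gave 0 to 0 genes in brain, 2 to 3 in cord, 0 to 1 for the difference between tissues, 7 to 8 between wild type tissues and 3 to 4 between double knockout tissues. The corresponding probe set counts were 0 to 0, 2 to 7, 0 to 0, 48 to 72 and 73 to 105. With the replicate block, brain calls stayed at 0 genes and 0 probe sets. In cord, where the numbers do not pair the arrays, the replicate block gave 3 genes, adding Atp2b4 at a limma adjusted p of 0.0498. The block took probe sets 4594975 and 4399567 out of the calls, but the count of called probe sets stayed at 5, as others entered. Atp2b4 was also called in cord with means, quantile normalization, a sex term, and without wild type brain 3 or both brain arrays of number 3. Over single gene levels of the 9 genes, 1073 values kept direction and call, 17 lost a call, 14 gained one and 38 uncalled values changed sign. PLIER values near the floor are dim, and 29 probe sets under it were not followed.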
